A study of Saccharomyces cerevisiae with 6 samples.

Results

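The leader of an mRNA runs from its 5′ end to the start codon. The RNAs described here had leaders of 13 to 17 nucleotides (nt), at the short end of a pool of 6962 RNAs designed on yeast mRNAs. The rule that picked them used their names alone, though it was set with earlier results of these data known. RNA names pair a yeast locus tag with a number, taken here as the leader length in nt, and all RNAs whose number was 13 to 17 were included. There were 391 of them, 5.62% of the pool, each from a different gene. By length, 78 had 13 nt, 64 had 14 nt, 71 had 15 nt, 89 had 16 nt and 89 had 17 nt. Of the 391 genes, 131 had no other RNA in the pool, 161 had 2 RNAs and 99 had 3 or more, so for many genes the very short leader could be set against a longer leader of the same gene.

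The RNAs were made with T7 RNA polymerase, capped and incubated in a cell-free translation extract of the budding yeast Saccharomyces cerevisiae, and the mixture was separated on a sucrose gradient. Libraries were made from the 80S fraction, in which RNA sits on a ribosome of both subunits (3 libraries), a fraction that the labels call untranslated (2 libraries), and the input pool (1 library). RNA of the 80S and untranslated fractions was extracted with phenol and chloroform and then pulled down through biotin, whereas the pulldown label of the input names the extraction alone. The protocol text that all libraries share does name the pulldown, so whether the input went through it is not settled. If it did not, fraction and pulldown cannot be told apart in a comparison with the input. The labels do not say whether replicate libraries came from separate extracts, so the p-values below reflect the spread among these libraries alone, possibly a technical one.

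In the scanning model of initiation, the small ribosomal subunit with its initiation factors joins an mRNA near the 5′ cap and moves along the leader until initiator tRNA pairs with a start codon. The large subunit then joins and an 80S ribosome forms. A start codon very close to the cap leaves the small subunit little room to settle upstream of it, and such start codons are known to be passed over more easily in many systems. Yeast leaders are typically rich in A and poor in G and C, and an A at position -3 from the start codon is the best known feature of the yeast start context.

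The leader sequences were read from the R64 reference genome of RefSeq as the bases that end just before the annotated ATG, since R64 marks coding sequences but not leaders. Of the 391 RNAs, 379 carried a locus tag with a sequence, and the other 12 are described by their values only. All 379 leaders differed from each other, and all 379 were followed by ATG. The first base of the leader was A in 310, G in 59, C in 7 and T in 3, and a pyrimidine preceded the leader in 96.0%. The synthesised RNAs may differ from the reference, and how much coding sequence they carried is not stated in the labels. The mean composition of the 379 leaders was 43.8% A, 20.2% T, 18.9% G and 17.03% C, against 40.3% A, 24.98% T, 17.4% G and 17.4% C in leaders of 18 nt or more.

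Cytosine number is the feature of the leader itself that the results below describe most, and the extremes of the 379 leaders are shown for that reason. They were picked by sequence, after the relation with cytosine was known. The 11 leaders with 6 or more cytosines follow first, with coordinates on R64, and read 5′ to 3′ in the sense of the RNA, as DNA. Capitals mark the cytosines.
YCG1 (chrIV:1117109-1117125, plus strand): aaCaggCCgCgCCCatC
ALB1 (chrX:189699-189715, plus strand): agCaCagCCaaCCCata
PTA1 (chrI:61053-61068, minus strand): aCCaCtaagCagCgCa
PIH1 (chrVIII:178000-178016, minus strand): CaaaCagaCCttaaCCg
GRE2 (chrXV:43677-43693, plus strand): atCaCaCgCCCgtaaat
LIP2 (chrXII:617319-617333, minus strand): gaaagCttCagCCCC
YJR096W (chrX:611181-611194, plus strand): ttCaCCtCaaCaaC
MRX20 (chrVI:241982-241997, plus strand): aagaaCagCaCCCgaC
TWF1 (chrVII:641995-642009, plus strand): atCtCaaCaCatCaC
HHT2 (chrXIV:576051-576066, minus strand): aagCaaaCaCtCCaCa
CWC21 (chrIV:1420839-1420852, minus strand): atCaCCgtCCagtC
Of these 11, 7 were lower in 80S than in untranslated RNA by the test described below, 0 were higher and 4 were not called (CWC21, MRX20, HHT2 and TWF1). The 7 are 63.6%, against 31.8% called lower in the pool. Among leaders of any length with 30% C or more, 68.05% were called lower.

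Another 16 leaders held no cytosine, and those printed here have no capitals.
YJR015W (chrX:462705-462720, plus strand): gtaagtaagtatagtt
DUN1 (chrIV:281849-281861, minus strand): aattatagtgaag
ZDS2 (chrXIII:51627-51639, plus strand): aaattagaatttt
SEI1 (chrXII:928727-928742, plus strand): aaagtgaataggaagg
GRX7 (chrII:267337-267350, minus strand): gaagaaaattagag
YOS1 (chrV:307639-307652, plus strand): gatatagaggggat
TRS23 (chrIV:954275-954287, plus strand): gggaaaaattgaa
ILV3 (chrX:466209-466223, minus strand): aagaaaaaagtagag
MIX14 (chrIV:503481-503497, plus strand): aaagataggtgaagaag
CTM1 (chrVIII:330295-330309, plus strand): aaaaggaaagttgaa
CHZ1 (chrV:213424-213436, plus strand): aaagagagaaata
OMS1 (chrIV:1093749-1093762, plus strand): ataagtaagtgagg
DLD3 (chrV:16342-16354, plus strand): atatataagaatt
YMR262W (chrXIII:793713-793725, plus strand): attgaggaagtag
MTQ2 (chrIV:734124-734137, plus strand): gagaaaggtgaagt
Of these 16, 10 were higher in 80S than in untranslated RNA, 3 were lower (MTQ2, YMR262W and DLD3) and 3 were not called (CHZ1, CTM1 and OMS1). The 10 are 62.5%, against 38.6% called higher in the pool. Among leaders of any length with under 10% C, 63.1% were called higher, so the share was not particular to this set. In single libraries the contrast between both ends is shown by YCG1 and SEI1, examples that the rule for named RNAs did not take. Other RNAs of these sets did not show it, as the calls above tell. YCG1, a condensin subunit, had 1822, 1840 and 1980 FPKM (fragments scaled to RNA length and library size) in the 80S libraries and 8633 and 9426 FPKM in the untranslated ones, with 6032 FPKM in the input. SEI1, the yeast seipin of lipid droplets, had 27282, 26666 and 26881 FPKM in 80S and 7787 and 8659 FPKM in untranslated RNA, with 11183 FPKM in the input. In both RNAs the 3 80S libraries lay apart from the 2 untranslated libraries, below them for YCG1 and above them for SEI1.

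The very short leaders were well represented in every library. At the median they had 2279, 2172 and 2239 FPKM in the 80S libraries, 2205 and 2122 FPKM in the untranslated libraries and 3669 FPKM in the input, where all 6962 RNAs had a median of 3112. They made up 5.70%, 5.59% and 5.70% of the summed FPKM in 80S, 6.03% and 5.61% in untranslated RNA and 6.39% in the input. All 391 passed the filter of a mean of at least 10 FPKM. The median SD between replicates was 0.20 in 80S and 0.29 in untranslated RNA on the log2 scale. Over the 391 RNAs, which share libraries and are not replicates, log2 FPKM had a Pearson r of 0.967 to 0.976 between 80S libraries, 0.919 between the untranslated libraries and 0.490 to 0.576 between an 80S and an untranslated library. Depth in reads is unknown, because the deposited values are FPKM and whole reads could not be recovered from them.

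The comparison of 80S with untranslated RNA addresses which of these RNAs were recovered with a joined ribosome. Very short leaders were found on both sides. Among the 391, limma called 159 higher and 118 lower in 80S at an adjusted p of 0.05 and left 114 uncalled, where the fit and the adjustment ran over the whole pool. In the pool 70.4% of RNAs were called, 38.6% higher and 31.8% lower, and among very short leaders 70.8% were called, 40.7% higher and 30.2% lower, a share near the background in each direction. The median log2 change was 0.30, against 0.18 over all RNAs, and the 10th and 90th percentiles were -2.05 and 1.85, against -1.97 and 1.86. All 3 80S libraries lay above both untranslated libraries for 177 very short leaders (background 43.6%) and below both for 128 (background 35.9%). Calls of 2-fold or more numbered 110 in the higher direction (background 27.5%) and 88 in the lower (background 23.5%). Those of 4-fold or more numbered 30 (background 7.91%) and 44 (background 9.62%). FPKM is a share of a library, and rescaling by median ratios moved the log2 change of the median RNA of the pool by -0.15, so changes near 0 depend on the scaling.

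The 8 very short leaders with the largest rise in 80S are printed here, with cytosines in capitals, except that those of YJR015W and DUN1 stand above.
BUD21 (chrXV:472712-472724, plus strand): attaagtaagaCa
YCH1 (chrVII:905222-905236, plus strand): aattgCaaaaaaaat
SKI8 (chrVII:91248-91264, minus strand): aatCaagtattggaaaa
RIX1 (chrVIII:493879-493895, plus strand): atagaCaaaatttgagC
YET1 (chrXI:317058-317070, minus strand): aaataatattgCg
POS5 (chrXVI:191390-191405, plus strand): aaggataCtgattaaa
None of the 8 held more than 2 cytosines. YJR015W, an uncharacterised gene with a 16 nt leader, had 1523, 782 and 1218 FPKM in 80S against 42.1 and 109 FPKM in untranslated RNA, with 641 FPKM in the input. Its log2 change was 4.04 (standard error, SE, 0.44, limma, adjusted p = 8.811e-05), and it was 3.36 without untranslated replicate 1 and 4.72 without untranslated replicate 2. BUD21 (13 nt) encodes a protein of the small-subunit processome, which builds the small ribosomal subunit. It had 2343, 1456 and 1704 FPKM in 80S against 170 and 240 FPKM in untranslated RNA, an 8.87-fold rise (log2 change 3.15, SE 0.28, limma, adjusted p = 3.404e-05). The lowest 80S library of BUD21 stood far above the higher of its untranslated libraries. YCH1 (15 nt), from the gene of a phosphatase, rose 8.82-fold.

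SKI8 and RIX1 both had 17 nt leaders. SKI8, a subunit of the Ski complex that feeds RNA to the cytoplasmic exosome, had 9442, 8846 and 8080 FPKM in 80S against 1102 and 1314 FPKM in untranslated RNA, a change of 2.87 on the log2 scale (SE 0.18, limma, adjusted p = 1.251e-05). RIX1, which acts in the maturation of the large ribosomal subunit, had 4489, 4393 and 5260 FPKM in 80S against 790 and 527 FPKM in untranslated RNA, a change of 2.86 on the log2 scale (SE 0.23, limma, adjusted p = 2.212e-05). Both RNAs kept a clear gap between the fractions, and the SKI8 replicates lay closer together than those of RIX1 in untranslated RNA. YET1 (13 nt), an endoplasmic reticulum membrane protein, had 15489, 16029 and 16543 FPKM in 80S against 2037 and 2498 FPKM in untranslated RNA. DUN1 (13 nt), a checkpoint kinase of the DNA damage response, rose 6.65-fold, and POS5 (16 nt), the mitochondrial NADH kinase, rose 6.42-fold.

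Of the 8 very short leaders with the largest fall, 7 had a sequence, printed with cytosines in capitals. YHR071C-A (15 nt) is named by its values only.
GUS1 (chrVII:39008-39022, plus strand): atagaagggatCaag
YOL097W-A (chrXV:136203-136219, plus strand): tgtgCaaCaaCagCaCa
PHO91 (chrXIV:651713-651727, minus strand): aaCttgCagaCtgaC
CEF1 (chrXIII:693365-693380, plus strand): ataCtagCatttCaag
RPL4A (chrII:300150-300165, plus strand): aagaaCaatCatCgaa
YIA6 (chrIX:344046-344061, plus strand): agCagtCtttagCaCa
CCZ1 (chrII:497148-497162, plus strand): atatgaaagaCggat
Cytosines were 1 to 5 in these leaders, and GUS1 and CCZ1 held 1 each, so a cytosine-poor leader did not always go with a rise. GUS1, the glutamyl-tRNA synthetase, had 528, 1136 and 896 FPKM in 80S against 19103 and 13962 FPKM in untranslated RNA, the largest fall of the set (log2 change -4.33, SE 0.32, limma, adjusted p = 1.769e-05). YOL097W-A, an uncharacterised gene, had 2211, 1930 and 2820 FPKM in 80S against 51941 and 26296 FPKM in untranslated RNA, which made it the most abundant very short leader of untranslated replicate 1. PHO91, a phosphate transporter of the vacuole membrane, had 3514, 3784 and 3251 FPKM in 80S against 31429 and 42809 FPKM in untranslated RNA (log2 change -3.39, SE 0.19, limma, adjusted p = 1.127e-05). In all 3 RNAs the lowest untranslated library was several times the highest 80S library. CEF1, a splicing factor, was lower by 3.07 on the log2 scale, with 669, 696 and 629 FPKM in 80S against 4743 and 6600 FPKM in untranslated RNA. RPL4A, a protein of the large ribosomal subunit, YHR071C-A, YIA6, which carries NAD+ into mitochondria, and CCZ1, part of the exchange factor for the vacuolar Rab GTPase, were lower in 80S by 7.33-, 7.33-, 7.26- and 7.12-fold.

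At the other end of the range lay RNAs that were shared evenly. RRP4 (14 nt), a core subunit of the RNA exosome, had 1851, 1381 and 1397 FPKM in 80S and 1554 and 1510 FPKM in untranslated RNA. NAT3 (15 nt), the catalytic subunit of an N-terminal acetyltransferase, had 3009, 3253 and 3478 FPKM in 80S and 4071 and 2614 FPKM in untranslated RNA. The fractions overlapped for both, and their log2 changes of 0.00 (SE 0.22) and -0.01 (SE 0.23) were the nearest to 0.

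Within the 13 to 17 nt window, length did not order the RNAs. The median log2 change of 80S against untranslated RNA was -0.05 at 13 nt, 0.21 at 14 nt, 0.48 at 15 nt, 0.30 at 16 nt and 0.53 at 17 nt. It was -0.07 for the 103 RNAs of 18 nt, just outside the window, and 0.35 for the 102 of 19 nt. At 13 nt, 26 RNAs (33.3%) were called higher and 30 (38.5%) lower, and at 17 nt 43 (48.3%) were called higher and 22 (24.7%) lower. In the pool these shares were 38.6% and 31.8%. Over the 6 pairs of an 80S with an untranslated library the median ran between -0.43 and 0.04 at 13 nt and between 0.37 and 0.64 at 17 nt, so these lengths did not overlap, but the 18 nt RNAs ran between -0.19 and 0.22. Over the 379 RNAs with a sequence, length and log2 change had a Spearman rho of 0.05 and a Pearson r of 0.03. After median ratio scaling the medians at 13, 14, 15, 16, 17 and 18 nt were -0.20, 0.07, 0.34, 0.16, 0.38 and -0.22, since this scaling moves the change of every RNA by about the same amount.

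Cytosine content ordered them more than length did. From 0 to 6 cytosines in the leader, the median log2 change was 1.05 (16 RNAs), 0.76 (73), 0.57 (106), 0.43 (90), -0.02 (58), -0.76 (25) and -1.74 (9), and the RNAs with 7 (ALB1) and 8 (YCG1) had -2.66 and -2.26. By share, the 89 leaders under 10% C had a median of 0.86, with 51 called higher and 22 lower. The 153 leaders of 10 to under 20% had 0.55 (75 higher, 39 lower), and the 107 of 20 to under 30% had 0.06 (29 higher, 33 lower). That last median was -0.08 after median ratio scaling, so its sign depends on the scaling. The 30 leaders with 30% C or more had -0.98, with 1 called higher and 19 lower. In the pool, 38.6% were called higher and 31.8% lower. No test was made over RNAs, which share libraries and are not replicates.

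The extremes by cytosine share also differed in their levels. Leaders with 30% C or more had median FPKM of 1532, 1259 and 1506 in the 3 80S libraries, 3801 and 3227 in the untranslated libraries and 4203 in the input. Leaders under 10% C had 2677, 2549 and 2601 in 80S, 1654 and 1589 in untranslated RNA and 4319 in the input. The input medians of these sets lay close together, while the sets stood in opposite order in the 80S and the untranslated libraries. The median change of the cytosine-rich set minus that of the cytosine-poor set was -1.84, and it ran between -1.97 and -1.82 when each of the 5 fraction libraries was left out in turn. Leaders of 18 nt or more had the same order, with medians of 1.09, 0.42, -0.57 and -1.29 from the lowest to the highest share, so the order was not particular to very short leaders. In leaders of 18 to 22 nt (589 RNAs) the leader C share and the log2 change had a Spearman rho of -0.45 and a Pearson r of -0.47.

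The order by cytosine was present at each length. With 3 or more cytosines against 2 or fewer, the median was -0.66 against 0.16 at 13 nt, 0.01 against 0.59 at 14 nt, 0.19 against 0.67 at 15 nt, -0.54 against 0.83 at 16 nt and 0.19 against 0.94 at 17 nt. The cytosine-richer RNAs had the lower median at each of the 5 lengths. Over the 6 pairs of an 80S with an untranslated library these medians overlapped at 15 nt, with 0.02 to 0.28 against 0.23 to 0.82. At the other lengths they did not overlap. Over the 379 RNAs the share of C in the leader and the log2 change had a Spearman rho of -0.32 and a Pearson r of -0.32. For the other bases rho was 0.29 (A), -0.07 (G) and 0.02 (T), and r was 0.26, -0.07 and 0.03. The shares of the bases are bound to each other, and C and A had a rho of -0.29. In the 6 pairs of an 80S with an untranslated library, rho for C ran between -0.33 and -0.28.

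The first 24 bases of the coding sequence showed a similar order with C, with a rho further from 0 than that of the leader. Over the 379 RNAs the share of C in these coding bases had a rho of -0.39 and an r of -0.40 with the log2 change, between -0.39 and -0.37 in the 6 library pairs. In leaders of 18 to 22 nt (589 RNAs) the rho was -0.20, in those of 23 to 30 nt (916 RNAs) -0.26 and in those of 71 to 115 nt (1528 RNAs) -0.10, and the differences between these values were not tested. The 16 very short leaders whose first 24 coding bases held 30% C or more had a median log2 change of -1.82, with 13 called lower and 0 higher by limma. The 86 with under 10% had 0.82, with 49 called higher and 12 lower. In the pool, 38.6% were called higher and 31.8% lower. The C shares of leader and coding stretch had a rho of 0.15 with each other, and for both stretches joined rho with the log2 change was -0.48. Introns were left out of these coding bases, which mattered for 12 RNAs.

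Position by position, a cytosine went with a lower median than an adenine at each of the 13 positions closest to the start codon, and C had the lowest median of the 4 bases at 8 of them. At position -3, 238 leaders (62.8%, against 62.6% of all leaders) had A, with a median of 0.43, 73 had G (0.48), 32 had T (0.16) and 36 had C (-0.25). At position -4, the 87 leaders with C had a median of -0.27 and the 149 with A 0.55. The window of 4 A (AAAA) occurred in 78 very short leaders, which is 20.6% of them against 49.6% of all leaders, of whatever length, and these had a median of 0.77 against 0.16 in the others. The pair CC occurred in 107 (28.2%, against 61.5% of all leaders), with a median of -0.28 against 0.55 in the others. Leaders with AAAA held 13.05% C on average against 18.06% in the others, and those with CC held 25.01% against 13.89%. The motifs were not examined apart from the cytosine share. Both motifs were searched on the strand of the RNA, and their occurrences may overlap. By the first base of the leader, the median was 0.35 for A (310) and 0.32 for G (59), and -1.40 for the 7 leaders that began with C.

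An ATG inside the leader is an upstream start codon, which scanning ribosomes may use in place of the annotated one. It occurred in 19 of the 379 very short leaders (5.01%, against 14.2% of all leaders). Of the 19, 8 (42.1%) were called higher in 80S and 7 (36.8%) lower. Among all 971 leaders with ATG, of any length, these shares were 41.9% and 29.15%, and in the pool 38.6% and 31.8%. The median log2 change of the 19 was 0.19, against 0.33 in the 360 leaders without ATG. The 3 leaders whose ATG nearest the start codon was in frame with it were each called higher (background 38.6%). Another 4, out of frame and with the most negative values, are shown for contrast. They were chosen after their values were seen. Capitals mark ATG.
YDL144C (chrIV:199733-199749, minus strand): ataagctaATGtcgaaa
EST1 (chrXII:609525-609539, minus strand): ATGccaccatagata
SFI1 (chrXII:143187-143200, plus strand): atATGtgctaggtt
CCZ1 (chrII:497148-497162, plus strand): atATGaaagacggat
MMP1 (chrXII:17940-17955, plus strand): ATGaaagatacccgaa
PUS7 (chrXV:792242-792258, minus strand): aatatctgttgcATGcc
JHD1 (chrV:254643-254655, plus strand): aagctATGgtgca
In YDL144C (log2 change 2.30) the ATG opens onto the annotated coding sequence with no stop codon between. In EST1 (1.95), a telomerase subunit, and SFI1 (1.19), a spindle pole body component, a stop codon follows inside the leader. EST1 had 8438, 10317 and 8835 FPKM in 80S against 1934 and 2919 FPKM in untranslated RNA. MMP1, the S-methylmethionine permease, had 3126, 4319 and 3978 FPKM in 80S against 27575 and 22863 FPKM in untranslated RNA, a log2 change of -2.73. The 16 out-of-frame leaders were called higher in 5 cases (31.25%, background 38.6%) and lower in 7 (43.75%, background 31.8%). Their median was -0.49 and they ranged from -2.83 to 1.64, so they lay on both sides.

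Against the input, both fractions were lower for more very short leaders than they were higher. In 80S against input, 65 were called higher (background 20.1%) and 142 lower (background 33.2%), which is 16.6% and 36.3% of the 391, with a median log2 change of -0.39 against -0.25 for all RNAs. In untranslated RNA against input, 53 were called higher (background 17.4%) and 141 lower (background 34.4%), which is 13.6% and 36.1%, with a median of -0.53 against -0.36 for all RNAs. These comparisons share the input library, and each shares a fraction with the one above. After median ratio scaling, which moved the median of all RNAs by 0.24 and 0.39, the calls were 86 higher and 118 lower for 80S and 79 higher and 105 lower for untranslated RNA. The input has 1 library, and the fit gave it the spread of the replicated fractions. By call, 51 RNAs were lower than input in both fractions and 22 were higher in both. These joint counts were not made over the pool, so they do not tell the very short leaders from other RNAs.

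The largest rises over input belonged to RNAs that were scarce in it. MEH1 (17 nt), a protein of the vacuolar EGO complex in TORC1 signalling, and RPC37 (15 nt), a subunit of RNA polymerase III, had an input of 23.9 FPKM, the lowest value in that library, shared by 12 RNAs with leaders of 13 to 102 nt. MEH1 had 1321, 1363 and 909 FPKM in 80S and 740 and 1254 FPKM in untranslated RNA, and RPC37 had 710, 346 and 388 FPKM in 80S and 690 and 405 FPKM in untranslated RNA. Both had overlapping fractions and were not called between 80S and untranslated RNA. YDL172C (14 nt) was 23.9-fold higher in 80S than input. In untranslated RNA, SPB1 (17 nt), an rRNA methyltransferase, was 12.3-fold and FUN26 (16 nt), a nucleoside transporter, 11.1-fold above input. Input levels under 10 times the lowest value occurred in 14 very short leaders, and all 14 were called higher in 80S than input, so these folds rest on little input signal.

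The largest falls below input were of RNAs with 3943 to 13814 FPKM in the input, against a median of 3669 FPKM for the very short leaders. TWF1 (15 nt), the actin-binding twinfilin with 6 cytosines in its leader, had 433, 219 and 325 FPKM in 80S and 200 and 185 FPKM in untranslated RNA, against 4226 FPKM in the input. It was low in both fractions alike, with log2 changes of -3.75 and -4.45 to input (limma, adjusted p = 0.0003446 and 0.0004141). PTA1 (16 nt), of the cleavage and polyadenylation factor, had 442, 440 and 622 FPKM in 80S and 4520 and 2578 FPKM in untranslated RNA, against 6849 FPKM in the input, so it was lower in 80S than in both other fractions. In contrast, ACM1 (15 nt), an inhibitor of the anaphase-promoting complex, had 2183, 1001 and 1264 FPKM in 80S and 344 and 443 FPKM in untranslated RNA, against 8594 FPKM in the input. The aquaporin AQY1 (15 nt) was 13.8-fold and MNE1 (17 nt), which acts in splicing of a mitochondrial mRNA, 13.6-fold below input in untranslated RNA. TRI1 and YNR014W (16 nt each) were 12.5- and 12.1-fold lower in 80S than input. HHT2, a histone H3 gene whose leader has 6 cytosines, resembled TWF1 in being low in both fractions, with 500, 348 and 471 FPKM in 80S and 328 and 230 FPKM in untranslated RNA against 3119 FPKM in the input.

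For 260 genes the very short leader could be compared with a longer leader of the same gene, of 26 to 114 nt and 11 to 98 nt longer (median 27). The difference of log2 FPKM between both RNAs was formed within each library, and its change from untranslated RNA to 80S was tested with limma over all 2008 genes with several leaders. The very short leader had the higher 80S to untranslated ratio in 95 genes (background 33.6%) and the lower ratio in 100 (background 34.9%), and 65 were not called. In all, 75% of the 260 were called, against 68.5% of the 2008 genes. The median difference was 0.16, against -0.01 over all genes. Differences of 2-fold or more were called for 74 genes with a higher and 83 with a lower ratio, and those of 4-fold or more for 32 and 29. Over all 2008 genes these counts were 549 and 544, and 243 and 227. How reads shared by both RNAs were assigned is not given in the sources used.

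YCH1 had the largest positive difference. Its 15 nt leader had 4763, 4421 and 5258 FPKM in 80S against 794 and 372 FPKM in untranslated RNA. Its 45 nt leader had 1902, 1770 and 2079 FPKM in 80S against 9816 and 5836 FPKM in untranslated RNA. The RNAs moved in opposite directions, and the ratio was 34.9-fold higher with the short leader (log2 difference 5.13, SE 0.20, limma, adjusted p = 8.616e-06). ARG7, an enzyme of arginine synthesis, was 17.02-fold higher with 15 than with 47 nt, RBK1, the ribokinase, 15.9-fold with 17 than with 52 nt, and CTF8, a subunit of a clamp loader for sister chromatid cohesion, 14.6-fold with 15 than with 60 nt. MRP21, a mitochondrial ribosomal protein, was 13.9-fold higher with 17 than with 31 nt, and CUL3, a cullin of ubiquitin ligases, 13.1-fold with 17 than with 28 nt. In each of these 6 genes the short leader was called higher in 80S than in untranslated RNA and the long one lower.

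PHO91 had the largest negative difference. With 15 nt it fell as given above, and with 43 nt it had 4803, 5893 and 4540 FPKM in 80S against 2459 and 3318 FPKM in untranslated RNA. The ratio was 18.5-fold lower with the short leader (log2 difference -4.21, SE 0.20, limma, adjusted p = 8.953e-06). RPC25, a subunit of RNA polymerase III, was 16.7-fold lower with 15 than with 54 nt, ZIM17, a partner of mitochondrial Hsp70, 14.5-fold with 15 than with 49 nt, and ARO2, the chorismate synthase, 13.5-fold with 16 than with 54 nt. RRP15, a factor of large-subunit assembly, was 12.4-fold lower with 15 than with 49 nt, and PIH1, of the R2TP chaperone complex, 10.7-fold with 17 than with 34 nt. In each of these 6 genes the short leader was called lower and the long one higher. The 80S values of the RRP15 short leader were uneven, with 261, 200 and 42.4 FPKM, and its difference without 80S replicate 3 was -3.12.

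For pairs in which the longer leader adds at most 30 nt, the added upstream stretch is printed, since it is the known difference between both RNAs. Capitals mark cytosines, and each stretch lies immediately upstream of the short leader.
YCH1 added: gtgCagCCagatagaagCaaaagagaagtC
MRP21 added: gtCaaatatCaCCC
CUL3 added: aaCtCaaatCt
PHO91 added: aaaaagaaaaCtgtgaaggtgaCaCggt
PIH1 added: agaCttttCaaagCgaa
In YCH1, MRP21 and CUL3 the short leader had the lower share of C (6.67%, 17.6% and 11.8%, against 13.3%, 25.8% and 17.9% in the long one). In ARG7, RBK1 and CTF8, which also had large positive differences, the shares lay close together. They were 20%, 17.65% and 13.3% in the short leader, against 21.3%, 19.2% and 15% in the long one. In PHO91 and PIH1 it had the higher share (26.7% and 35.3%, against 16.3% and 26.5%). RPC25 and ZIM17 were exceptions, with less C in the short leader (6.67% and 20%) than in the long one (9.26% and 22.4%) and a lower ratio.

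Over the 254 pairs with a sequence, the difference in C share divided the pairs by its sign. In the 17 genes whose short leader had a C share lower by 10 percentage points or more, the ratio of the short leader was called higher in 8 and lower in 4, with a median difference of 0.52. With a share lower by under 10 points (116 genes) it was higher in 55 and lower in 31, with a median of 0.63. With an equal share or one higher by under 10 points (101 genes) it was higher in 26 and lower in 47, with a median of -0.51. In the 20 genes whose short leader had a share higher by 10 points or more it was higher in 4 and lower in 14, with a median of -1.59. The Spearman rho was -0.34 over the 254 and -0.35 over all 1983 pairs with a sequence, in genes that share the same 6 libraries. The difference in length did not separate the calls in the same way: 28 higher and 34 lower of 89 genes for 11 to 20 nt, 41 and 40 of 105 for 21 to 40 nt, and 26 and 26 of 66 for 41 to 98 nt.

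Of the 260 genes, both RNAs were called higher in 80S in 48 (18.5%, against 19.0% of all 2008 genes) and both lower in 30 (11.5%, against 13.4%). The short one was called higher and the long one lower in 23 (8.85%, against 8.32%), and the short one lower and the long one higher in 26 (10%, against 8.12%). The other genes had at least 1 RNA that was not called. Each of these shares lay near that of the pool.

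By function, 26 gene lists held 141 of the 391 RNAs, and 17 lists held at least 4. In 16 of the 17, members lay on both sides, and no set test was made. The calls of each list below stand against 38.6% called higher and 31.8% lower in the pool. Translation itself was one such group. Of 16 cytosolic ribosomal protein RNAs, 5 were called higher and 5 lower, against 38.6% and 31.8% of the pool, with a median of 0.26. RPS22A (16 nt), of the small subunit, averaged 4433 ± 596 FPKM in 80S (SD, n = 3) and 1186 ± 441 FPKM in untranslated RNA (SD, n = 2), and RPL4A (16 nt) averaged 372 ± 74.3 FPKM in 80S and 2697 ± 150 FPKM in untranslated RNA. The duplicated genes RPL4A and RPL4B (14 nt) fell together, with log2 changes of -2.87 and -2.12, but all 24 of their first 24 coding bases are identical, so reads may have been split between them. RPS11B and RPS11A (23 of 24 identical) had -0.49 and -0.57, of which only RPS11A was called. RPL6B and RPL6A (21 of 24) had 0.51 and -0.50, neither called.

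Other translation genes rose or fell one by one. The aminoacyl-tRNA synthetase list had 4 RNAs, with 2 called higher, 1 lower (GUS1) and a median of 0.77. MSK1 (17 nt), the mitochondrial lysyl-tRNA synthetase, had 1258, 649 and 850 FPKM in 80S against 288 and 280 FPKM in untranslated RNA. The mitochondrial elongation factor RNAs TUF1 (17 nt) and MEF1 (14 nt) both rose, by 2.20 and 1.33 on the log2 scale. TIF35 (17 nt), a subunit of initiation factor eIF3, had a change of 0.77 that was called as deposited and not after median ratio scaling. These 3 were named after their values were seen, since their lists held only 1 or 2 RNAs. Of 4 mitochondrial ribosomal protein RNAs, 2 were higher, MRPL33 (1.13) and MRP21 (0.88), and 2 lower, MRPL27 (-1.22) and RSM28 (-0.59).

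Ribosome assembly had 11 RNAs, with 3 called higher (BUD21, RIX1 and REI1) and 5 lower (SPB1, UTP18, MPP10, RRP15 and ALB1). ALB1 (17 nt, 7 cytosines), a factor of the large subunit, had 1263, 882 and 994 FPKM in 80S against 8504 and 5036 FPKM in untranslated RNA. For tRNA modification, 3 of 6 were higher and 2 lower, among them the pseudouridine synthases PUS1 (16 nt, 1.62) and PUS7 (17 nt, -2.58). In the Ski complex and its partner, SKI8 and SKI2 rose (2.87 and 0.92) and SKI7 fell (-2.09). Of the 6 RNA decay and poly(A) processing RNAs to which these belong, 2 were higher and 3 lower. In splicing, 2 of 6 were higher and 3 lower, with SPP2 (16 nt, 1.06) at the top and CEF1 at the bottom. In RNA polymerases and general transcription, 2 of 8 were higher and 3 lower. RPC25 was lowest (-2.80), and SPT4 (17 nt), an elongation factor, was highest (1.38). The call of SPT4 was lost without 80S replicate 2 or 3 (1.33 and 1.32) and without untranslated replicate 2 (0.51), and its change was 2.25 without untranslated replicate 1.

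Of 16 secretory pathway RNAs, 10 were called higher and 3 lower, against 38.6% and 31.8% of the pool, with a median of 0.86. The calls were 9 and 3 after median ratio scaling. COG7 (14 nt), a subunit of the Golgi tethering complex COG, had 6246, 6639 and 5877 FPKM in 80S against 1079 and 1659 FPKM in untranslated RNA. COG1 (13 nt), of the same complex, had 2938, 3974 and 2722 FPKM in 80S against 12496 and 16704 FPKM in untranslated RNA. Both complex partners thus stood at opposite ends of the list, at log2 changes of 2.22 and -2.19. Of 4 subunits of the Golgi tether TRAPP, BET5, TRS23 and TRS20 rose by 1.83, 1.07 and 0.68 on the log2 scale, and TRS85 fell by 0.59. The list was one of 17, and nothing particular to it was tested.

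The list of histones and chromatin was the 1 list of the 17 without calls on both sides. It had 0 higher and 3 lower of 4, against 38.6% and 31.8% of the pool, and a median of -0.95. With 4 RNAs and no test, this does not set the list apart from the others. The 3 were SIR2 (13 nt, -1.70), the silencing deacetylase, SFH1 (15 nt, -1.06), of the RSC remodelling complex, and ARP4 (13 nt, -0.84), an actin-related protein of several chromatin complexes. The histone gene itself, HHT2, had 0.66 and was not called. The other lists of 4 or more are given by counts. Vacuolar protein sorting and autophagy had 4 higher and 3 lower of 9, from PEP12 (17 nt, 1.95) to CCZ1 (-2.83). DNA replication and repair had 4 and 4 of 10, from DUN1 (2.73) to CTF18 (13 nt, -1.29). Respiratory chain and ATP synthase had 2 and 2 of 7, from COX20 (16 nt, 1.54) to ATP12 (16 nt, -1.62). Chaperones had 2 and 3 of 6, from GIM5 (17 nt, 1.52) to ZUO1 (13 nt, -2.28). Mitochondrial import had 2 and 2 of 5, from TIM9 (17 nt, 1.30) to TOM71 (13 nt, -2.75). Amino acid biosynthesis had 2 and 1 of 4, from ARG7 (15 nt, 1.13) to ARO2 (16 nt, -1.72). Cell cycle, spindle and kinetochore had 1 and 1 of 4, the gamma-tubulin TUB4 (15 nt, 2.18) and the kinetochore protein NUF2 (17 nt, -2.69).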

How the data were processed

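The pool was measured by sequencing in 3 libraries of 80S RNA, 2 of untranslated RNA and 1 of input RNA, grouped by GEO's labels. The deposited values are FPKM, 1 for each RNA and library, per the file headers. The submitters' processing notes name cutadapt and STAR and give no version. The FPKM program, the genome build and how reads common to several RNAs were treated stand as not given in the sources used here. All columns of values belonged to a sample. Depth is unknown: 2.23% of the values in the input equalled a whole number of times the lowest within 0.001 of a step. Near the floor such steps were common. Of the 95 RNAs with an input of up to 5 times the lowest value, 78 lay within 0.01 of a whole multiple of it. The largest folds over input thus rest on 1 or a few of these steps.

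Values were taken as log2(FPKM + 1), a scale that understates the change of low RNAs. limma 3.58.1 (R 4.3.3) was fitted to all 6 libraries over 6962 RNAs with a mean per group and a variance trend, after a filter of a mean of at least 10 FPKM. p-values were adjusted after Benjamini and Hochberg over all RNAs at 0.05. Residual degrees of freedom numbered 3, prior ones 5.15. Differences of the shortest minus the longest leader within a library were fitted likewise over 2008 genes. The fits were also run on simulated data in which few RNAs or genes were changed. In the pool 70.4% of RNAs were called, so that run does not measure the rate of false calls in these data. With 3 libraries against 2, an exact two-sided permutation test cannot go below 0.1. Sequences came from the R64 RefSeq genome without introns in the leader, and Python 3.11.15, pandas 2.3.3 and numpy 2.4.6 gave counts and medians.

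The rule for named RNAs took, among those past the threshold whose groups of libraries did not overlap, the 8 largest rises and 8 largest falls of 80S against untranslated RNA, the 4 and 4 against input in each fraction, the 6 and 6 largest differences between leaders, the 2 nearest to 0 and the extremes of each gene list with 4 or more RNAs. An RNA that the rule took is not reported here. The members, lists and the interest in cytosine were chosen with earlier results of these data known. Lists were built from name patterns, and 15 genes of another function that the patterns caught were removed after values were seen. Alternatives were other pseudocounts and filters, median ratio scaling, no trend, a replicate block, no input library, the next longer leader and leaving out each library.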

Additional observations from a re-analysis of the deposited data

How the results depend on the processing

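Over 85 results, 1083 of 1094 values under alternatives stayed on the same side as the main value. Of the 940 values of single RNAs and pairs among them, 934 did so. The rest belong to medians and counts of sets, and those of them that changed side are not named here. Every count of called RNAs or genes stayed within 1.5 times its value. Median ratio scaling moved the median log2 change of the very short leaders to 0.16 (80S against untranslated), -0.15 (80S against input) and -0.14 (untranslated against input), from 0.30, -0.39 and -0.53. With each fraction library left out in turn, these medians ran from 0.24 to 0.37, from -0.45 to -0.37 and from -0.53 to -0.46. The replicate numbers of the labels name no shared extract or day. With the number as a replicate block, 162 very short leaders were higher and 127 lower in 80S than in untranslated RNA, and 86 and 93 genes had a higher and a lower ratio with the short leader, while the median of untranslated against input was -0.47. Deviations from the group means over all 6962 RNAs of the pool had correlations of 0.09 and 0.53 between same-numbered libraries. Between 80S replicate 3 and untranslated replicate 1, whose numbers differ, the correlation was 0.55. Of 940 values of single RNAs and pairs, 3 lost their call (SPT4, without 80S replicate 2 or 3 or untranslated replicate 2), 3 gained it (HHT2, without 80S replicate 2, without untranslated replicate 1 or with no trend) and 0 changed sign. Without the leaders that hold ATG, a choice made after the data were seen, 151 were higher and 111 lower. No fit was rerun for this, so these counts only leave out the calls of those leaders. The unknown depth limits RNAs with low input most, and the single input library has no replicate check.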
